A study of Mus musculus with 12 samples.

Results

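The circadian clock genes examined in triceps brachii muscle were Arntl, Per1, Per2, Per3, Cry1, Cry2, Nr1d1, Nr1d2, Dbp and Tef. They were chosen by gene symbol, and all 10 were found among the 10187 genes of the table. RNA from this forelimb muscle was profiled in 12 male C57/BL6 mice, 3 in each of 4 groups that crossed genotype with activity: inactive wild-type (IW), active wild-type (AW), inactive myostatin-reduced (IM) and active myostatin-reduced (AM). Every mouse, wild-type included, was fed chow with 0.025% tamoxifen for 6 weeks in total, starting at 4 months of age, to activate Cre recombinase, which removed myostatin only where exon 3 of Mstn was floxed. The promoter that drove Cre is not given in the sources used here. From 6 months of age the active mice lived alone in cages with a running wheel for 12 weeks, whereas cages had held 2 or 3 mice before, so wheel running and single housing cannot be told apart. The dark period ran for 12 hours, from 6 PM to 6 AM. The hour at which each mouse was killed is not given, so neither a clock phase nor a difference in sampling time can be assigned to any group. The selection used no expression value beyond presence in the table, but the genes were proposed with results of the same 12 mice known, and their counts of calls are descriptions of these mice and not independent evidence.

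The molecular clock is a feedback loop of transcription. The protein of Arntl (BMAL1) pairs with CLOCK and activates genes that carry E-box elements, among them the Per and Cry genes, whose proteins return to repress that activation. A further loop joins the nuclear receptors REV-ERB alpha and beta (Nr1d1 and Nr1d2), which repress Arntl, to the ROR receptors, which activate it through the same element. Dbp and Tef are PAR bZIP factors that carry the rhythm to output genes through D-box elements. In tissues of nocturnal rodents the Arntl message is known to peak near the end of the dark period, with the messages of Nr1d1, Dbp and the Per genes peaking in the light or around its end, so that low Arntl usually goes with high Dbp and Per. The Cry1 message is delayed and peaks late in the dark period, nearer to Arntl. Skeletal muscle has such a clock of its own, and contraction and feeding are known to reset it.

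The values are normalized read counts per gene, scaled between mice by the authors and not divided by gene length. The estimated depth was 9023778 to 12184401 reads per mouse, and 1 read was worth 0.0770 to 0.105 normalized reads. Per2 rested on 24 to 114 reads per mouse, which gives a counting error of 20.4% at the fewest, and Per1 on 84 to 538. The counting error of Tef was at most 2.07%. The genotype labels held in every mouse, since Mstn was at 79.7 to 138 in wild-type and at 8.70 to 21.6 in myostatin-reduced mice, a change of -2.66 on the log2 scale (SE 0.158, limma adjusted p = 1.29e-06). The 9 fast-fibre markers of muscle summed to 149114 to 223744 normalized reads per mouse, against at most 474 for any list of endothelial, adipocyte, blood, immune or neural markers. The blood sum rests on 1 of 5 markers, with no haemoglobin gene, and the immune sum on 2 of 5, so these lists say little about blood or immune cells. In a whole muscle, fewer cells of a type and less RNA per cell cannot be told apart.

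The elements through which these factors act were sought in the promoter windows of RefSeq (build GRCm38.p6, 250 bases before to 50 bases after each annotated start, both strands). The windows of 9 of the 10 genes were present, and Per2 was not among them. The letters searched were CACGTG for the E-box, CACGTT for the variant called the E-prime-box, TTATGTAA or TTACGTAA for the D-box and TAGGTCA for the ROR element. No match overlapped another. An E-box or E-prime-box was found for 5 of the 9 genes. For comparison, of all 27025 genes with a window, 8.09% held the E-box in at least 1 window, 5.44% the E-prime-box, 1.23% the D-box and 2.97% the ROR element. Of all 32851 windows the shares were 7.15%, 4.69%, 1.06% and 2.61%. The matches are printed to show these elements where they occur beside the clock genes, with the element in capitals and the strand of the gene read 5′ to 3′. They are letter matches and not evidence of binding. The E-prime-box appears as AACGTG where it lies on the opposite strand. The position of the first capital is counted from the annotated start.
Arntl, ROR element at position 31, chr7:113207530-113207559, plus strand: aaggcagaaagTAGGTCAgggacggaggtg
Per1, E-box at position -166, chr11:69098756-69098815, plus strand: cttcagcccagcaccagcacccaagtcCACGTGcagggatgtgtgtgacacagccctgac
Per3, D-box at position -205, chr4:151044836-151044897, minus strand: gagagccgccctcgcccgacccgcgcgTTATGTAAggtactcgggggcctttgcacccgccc
Per3, D-box at position -158, chr4:151044789-151044850, minus strand: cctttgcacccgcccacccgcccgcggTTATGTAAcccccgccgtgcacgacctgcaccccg
Cry1, E-box at position -60, chr10:85185082-85185141, minus strand: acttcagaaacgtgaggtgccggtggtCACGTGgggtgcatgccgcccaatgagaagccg
Cry2, E-prime-box at position -166, chr2:92434203-92434262, minus strand: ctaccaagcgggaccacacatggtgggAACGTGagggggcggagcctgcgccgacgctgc
Nr1d1, E-prime-box at position -28, chr11:98775378-98775432, minus strand: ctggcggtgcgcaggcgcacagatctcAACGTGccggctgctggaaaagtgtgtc
Tef, E-box at position -138, chr15:81811249-81811308, plus strand: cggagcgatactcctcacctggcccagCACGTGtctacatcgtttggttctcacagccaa
Cry1 also held an E-prime-box at position -79, and the second window of Tef held an E-box at position -127. The windows of Dbp and Nr1d2 held none of these letters, which says only that they are not within these 300 bases.

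Per kilobase of annotated exon, Nr1d1 had the highest level of the 10 genes, with a mean of 74.7 normalized reads per kb and a range of 53.0 to 91.5 over the 12 mice. Tef followed at 41.1 (30.8 to 55.7), and its mice overlapped those of Nr1d1. Nr1d2 was at 23.1 and Arntl at 15.6 normalized reads per kb, with overlapping ranges. Cry1, Dbp and Cry2 lay close together at 7.76, 7.28 and 7.22 normalized reads per kb, and these neighbours did not differ beyond the spread between mice. The Per genes had the lowest means, with Per1 at 4.0, Per3 at 1.98 and Per2 at 1.00 normalized reads per kb. Per1 ranged from 1.29 to 8.69, overlapping Cry1, Dbp and Cry2 above it and Per3 below it. Exon lengths came from an annotation other than the RefSeq exons in which the authors counted, so these levels are approximate.

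The genes also differed in how widely they varied among mice. The highest value over the lowest was 6.73 for Per1, 4.21 for Per2, 2.69 for Dbp, 2.31 for Cry2 and 2.16 for Per3. It was 1.49 for Arntl and 1.52 for Cry1, near the median of 1.41 over all genes tested. The remaining ratios were 1.81 for Tef, 1.73 for Nr1d1 and 1.57 for Nr1d2.

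**Figure D1:**
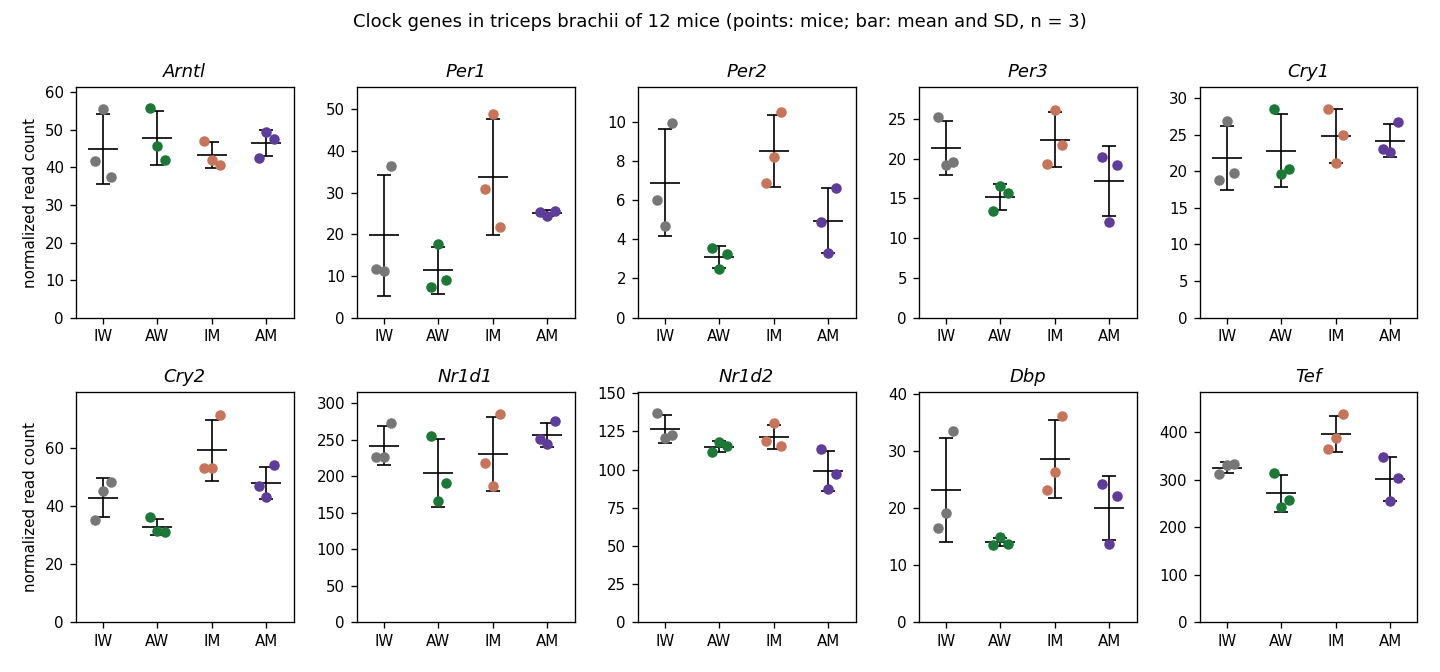
Normalized read counts (vertical axes, linear from 0) of the 10 clock genes in each mouse, by group on the horizontal axes. Points are mice, the long line is the mean and the bar is the SD (n = 3), and Arntl stays between 37.5 and 55.7 in all groups while the values of Per2 and Dbp are lowest in AW on average, at 3.10 and 14.04.

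Arntl is the activator of the loop (chromosome 7, 120350979 to 120457636, plus strand, build NCBIM37, mm9). IW mice 1, 2 and 3 had normalized read counts of 41.7, 55.5 and 37.5, and AW mice had 55.7, 45.8 and 42.0. The values were 47.1, 42.0 and 40.7 in IM and 42.6, 49.5 and 47.4 in AM mice. All groups overlapped, and the means stood within 43.3 ± 3.37 in IM and 47.8 ± 7.10 in AW (SD, n = 3). No difference between groups exceeded the spread between mice.

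Per1 (chromosome 11, 68908719 to 68923462, plus strand) is the Per gene known to respond fastest to outside signals. IW mice had 11.7, 11.2 and 36.4 normalized reads, and AW mice had 7.27, 17.7 and 9.13. In IM mice they were 30.8, 48.9 and 21.7, and in AM mice 25.3, 24.4 and 25.7. IW mouse 3 stood apart from its group, and every AM mouse was above every AW mouse, whereas IW and IM overlapped.

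Per2 (chromosome 1, 93312561 to 93355907, minus strand) encodes a core repressor of the loop. Wild-type mice had 6.02, 4.70 and 9.92 normalized reads when inactive (IW) and 3.55, 2.49 and 3.25 when active (AW). Myostatin-reduced mice had 6.85, 8.18 and 10.5 when inactive (IM) and 4.87, 3.31 and 6.63 when active (AM). Every active mouse lay below every inactive mouse of its genotype, although the values are low. The highest AM value, 6.63, was just under the lowest IM value, 6.85, a margin within counting error.

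Per3 (chromosome 4, 150377761 to 150418774, minus strand) belongs to the same family, and its loss has the mildest effect on the clock. The IW mice had 25.25, 19.2 and 19.6 normalized reads, above the AW mice with 13.4, 16.6 and 15.6. The IM mice had 19.3, 26.1 and 21.8, and the AM mice 20.2, 12.1 and 19.2. Wild-type groups did not overlap, whereas AM mouse 1 stood above IM mouse 1.

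The cryptochromes complete the repressor complex, and they behaved differently from each other. Cry2 (chromosome 2, 92243803 to 92274200, minus strand) had 35.1, 45.2 and 48.01 normalized reads in the IW mice and 36, 31.3 and 30.9 in the AW mice. The IM mice reached 52.9, 53.1 and 71.2, and the AM mice 46.8, 42.9 and 53.85. At either activity level, all 3 myostatin-reduced mice exceeded the 3 wild-type mice. Cry1 (chromosome 10, 84594447 to 84647799, minus strand) had values of 18.8, 26.8 and 19.7 in IW, 28.6, 19.6 and 20.3 in AW, 28.5, 21.1 and 24.9 in IM, and 23.1, 22.65 and 26.7 in AM mice. The 4 groups overlapped for Cry1.

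Of the REV-ERB receptors, Nr1d1 (chromosome 11, 98629246 to 98636647, minus strand) was at 226, 227 and 273 in IW and 256, 166 and 190.5 in AW mice. It was at 219, 186 and 286 in IM and 251, 245 and 276 in AM mice, so that no group stood apart. Nr1d2 (chromosome 14, 19036568 to 19071641, minus strand) had 137, 120.4 and 122 normalized reads in the IW mice and 111, 118 and 115 in the AW mice. The values were 119, 130.4 and 115 in IM and 114, 87.5 and 96.8 in AM mice. Every active mouse was below every inactive mouse of its genotype for Nr1d2. The margins were narrow, with a highest value of 118.4 in AW against a lowest of 120.4 in IW. In AM and IM mice these values were 113.6 and 115.2, and the counting error of Nr1d2 was 2.56% to 3.15%. Exons of Nr1d1 share 263 bases with those of Thra on the opposite strand, and it is not stated whether the counting used strand. Thra itself changed by -0.090 with activity (limma adjusted p = 0.26).

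Of the output factors, Dbp (chromosome 7, 52960458 to 52965525, plus strand) is one of the most rhythmic genes known in mouse tissues. The IW mice had 16.55, 19.2 and 33.5 normalized reads, and the AW mice had 13.5, 14.9 and 13.7. In IM mice they were 23.1, 26.4 and 36.2, and in AM mice 24.25, 13.6 and 22.2. Every AW mouse was below every IW mouse, and AM mouse 2 was as low as the AW mice while the other AM mice were higher. Dbp exons share 491 bases with the antisense-strand gene Sphk2, which changed by 0.17 with activity (limma adjusted p = 0.106). The part of these shared bases in the values of Dbp was not tested. Tef (chromosome 15, 81632851 to 81657291, plus strand), its relative with a shallower rhythm, was at 312, 331 and 332 in IW, 314.5, 242 and 256 in AW, 363, 387.5 and 438 in IM, and 348, 254 and 302 in AM mice. Every IM mouse was above all 9 other mice for Tef. Exons of Cry2 and of Tef share 295 and 193 bases with noncoding genes of the opposite strand that were not analysed here.

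Which clock genes differed with wheel access over both genotypes was asked by comparing the 6 active with the 6 inactive mice. Tef, Per3, Cry2 and Nr1d2 were under-expressed in active mice, whereas the changes of the other genes, Arntl included, did not pass the test. Of the 9 clock genes with a mean of at least 10, 4 passed a limma adjusted p-value under 0.05, all of them lower in active mice, where 14.5% of all 7247 genes tested were called and 6.51% were called lower. The median change of the 9 genes was -0.33 on the log2 scale, against -0.022 over all genes tested.

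Tef fell by 0.34 on the log2 scale (SE 0.0845, limma adjusted p = 0.0208), a mean that fell by 20.8% on the scale of value + 1. Per3 fell by 0.42 (SE 0.126, adjusted p = 0.0421), Cry2 by 0.33 (SE 0.0977, adjusted p = 0.0413) and Nr1d2 by 0.21 (SE 0.0649, adjusted p = 0.0444). The change of Dbp was -0.56 (SE 0.177, adjusted p = 0.0515), just outside the threshold, and that of Per1 was -0.48 (adjusted p = 0.283). Arntl changed by 0.10 (adjusted p = 0.513), Cry1 by 0.016 (adjusted p = 0.942) and Nr1d1 by -0.043 (adjusted p = 0.83). Per2 had a mean of 5.85 and was tested in the fit of all 10187 genes, where 10.7% of genes were called and 5 of the 10 clock genes, Per2 included. There Per2 fell by 0.80 (SE 0.176, adjusted p = 0.013). Only Per2 and Nr1d2 of the 10 separated active below inactive mice within both genotypes without overlap, as did 2.3% of all genes. The narrowest margin of each lay within counting error.

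These calls lay close to the threshold. All 4 were lost in each of the fits without IW mouse 2, IM mouse 3, AW mouse 2 or AW mouse 3. The share of all genes called in those fits was 8.03%, 9.04%, 8.22% and 7.62%. There the adjusted p-values of Tef were 0.0521 to 0.0590 and its change -0.33 to -0.30. Over all 12 fits that left out a mouse, Tef was called in 8, Cry2 in 5, Per3 in 3 and Nr1d2 in 1. Their highest limma adjusted p-values were 0.059, 0.102, 0.0984 and 0.103, in that order. By contrast, the change of Per2 was called without any of the 12 mice in turn, at -0.90 to -0.67. Slow-fibre content moved with the comparison: summed over 11 slow-fibre markers, normalized reads were 78.3 to 112 in IM and 94.3 to 1370 in IW, against 117 to 1343 in AM and 151 to 1831 in AW mice. Among myostatin-reduced mice, endothelial (281 to 474 against 215 to 220.1), adipocyte (134 to 226 against 102 to 127) and fast-fibre sums (157609 to 197690 against 215808 to 223744) also separated AM from IM mice, and their part in the changes was not tested. With slow-fibre content as a covariate (a score over those markers) none of the 9 genes was called for activity (0 in limma), and the share of all genes called fell too, from 14.5% to 5.53%. In that fit the changes were -0.46 for Per3, -0.25 for Nr1d2, -0.25 for Tef and -0.19 for Cry2, and in the same fit of all genes Per2 was at -0.70 (adjusted p = 0.0792).

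**Figure D2:**
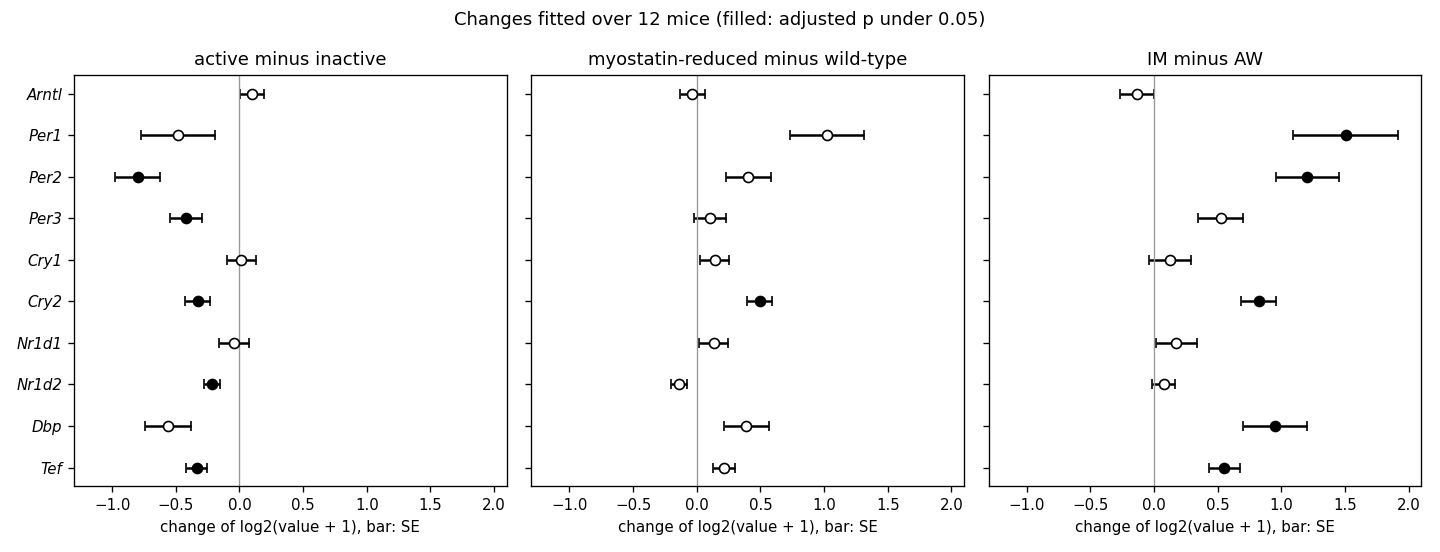
Fitted change of log2(value + 1) for each clock gene in 3 comparisons (horizontal axes; bars are the SE of the fit over 12 mice), with filled points for an adjusted p under 0.05. For activity, Per2 lies at -0.80 and Arntl at 0.10; for IM minus AW, Per1 lies at 1.51 and Arntl at -0.13.

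The genotype comparison asked whether myostatin reduction altered the clock genes over both activity levels. Cry2 was over-expressed in myostatin-reduced mice, by 0.49 on the log2 scale or 40.7% (SE 0.0977, limma adjusted p = 0.0137), and was the only one of the 9 genes called, where 5.78% of all genes were called and 3.57% were called higher. It was also the only one of the 10 to separate myostatin-reduced above wild-type mice within both activity levels, as did 2.51% of all genes. The call of Cry2 was kept in all 12 fits that left out a mouse, at 0.42 to 0.54, and with the slow-fibre covariate, at 0.40 (adjusted p = 0.0242). Per1 had the largest estimate of the 9, at 1.02 (SE 0.291, adjusted p = 0.0596), and was called without IW mouse 3 (1.29, adjusted p = 0.00975) or without AW mouse 2 (1.20, adjusted p = 0.0442). The changes of Per2, Dbp and Tef were 0.41, 0.39 and 0.22, with adjusted p-values of 0.222, 0.215 and 0.154. Arntl was at -0.034 (adjusted p = 0.879).

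An interaction was tested as the difference in genotype change between activity levels. It called 0 of the 9 clock genes and 0% of all genes in limma, and at an unadjusted p-value under 0.05 it held 0 of the 9 and 297 of all 7247 genes. None of the single-factor pairs of groups gave a call among the 9 genes either. IW-AW called 0.0276% of all genes, and at an unadjusted p-value under 0.05 it held 4 of the 9 clock genes and 14.7% of all genes. IM-AM called 7.84%, with 2 of the 9 and 26.2% of all genes at that unadjusted level. IW-IM called 2.51%, with 2 of the 9 and 17.4% of all genes at the unadjusted level, and AW-AM called 0.207%, with 3 of the 9 and 12.3% at that level. In IW-AM, where both factors differ, 2.97% of all genes were called and 0 of the 9, with 1 of the 9 and 20.1% of all genes at the unadjusted level. That gene was Nr1d2, lower by 0.35 on the log2 scale in AM (a change of -0.35, limma adjusted p = 0.0587), and it was called without AM mouse 1 or with the slow-fibre covariate.

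The contrast with the largest median change of these genes was AW-IM, between groups that differ in both factors. Per1, Cry2, Dbp and Tef were over-expressed in IM relative to AW mice, 4 of the 9 genes, where 18.7% of all genes were called and 9.52% were called higher in IM. Per1 was higher by 1.51 on the log2 scale (SE 0.411, limma adjusted p = 0.0241), from 11.4 ± 5.59 in AW to 33.8 ± 13.9 in IM (SD, n = 3). Dbp was higher by 0.95 (SE 0.251, adjusted p = 0.0206), Cry2 by 0.82 (SE 0.138, adjusted p = 0.00258) and Tef by 0.55 (SE 0.12, adjusted p = 0.00846). Per3 was at 0.52 (adjusted p = 0.0591), and Arntl at -0.13 (adjusted p = 0.535). In the fit of all genes, which called 14.4% of them and 5 of the 10 clock genes, Per2 was higher by 1.21 (SE 0.249, adjusted p = 0.0074). The median change of the 9 genes was 0.52, against 0.014 over all genes tested.

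Per1, Per2, Per3, Cry2, Dbp and Tef, 6 of the 10, did not overlap between the groups, every IM mouse being above every AW mouse, as in 17.4% of all genes. Cry2, Tef and, in the fit of all genes, Per2 were called without any of the mice in turn. The calls of Per1 and Dbp were lost without AW mouse 3 (limma adjusted p = 0.0886 and 0.0708). That of Per1 was also lost without IM mouse 1, IM mouse 2 or AW mouse 1 (0.0623, 0.0956 and 0.0624), and that of Dbp without IM mouse 3 or AW mouse 2 (0.0907 and 0.0552). The muscle markers moved with this contrast. Summed fast-fibre markers were 215808 to 223744 in IM and 149114 to 178752 in AW mice, slow-fibre markers 78.3 to 112 against 151 to 1831, endothelial markers 215 to 220.1 against 250.3 to 425, and adipocyte markers 102 to 127 against 156 to 221. With the slow-fibre covariate, where 4.66% of all genes were called, Cry2 alone of the 9 was called, at 0.59 (adjusted p = 0.0351), with Per1 at 1.77 (adjusted p = 0.0716), Dbp at 0.81 (adjusted p = 0.166), Tef at 0.40 (adjusted p = 0.11) and Per2 at 1.03 (adjusted p = 0.0914). The parts of fast-fibre, endothelial and adipocyte content in these changes were not tested.

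The activator was then set against the repressors and outputs within each mouse, since the messages of Arntl and of Dbp, Nr1d1 and the Per genes are known to peak at opposite phases. AW mouse 1 had the highest Arntl of all mice (55.7) with the lowest Dbp (13.5) and Per1 (7.27). IW mouse 3 had the lowest Arntl (37.5) with high Dbp (33.5), Per1 (36.4) and Per2 (9.92). IM mouse 3 likewise combined low Arntl (40.7) with the highest Dbp (36.2) and Per2 (10.5), and AM mouse 2 combined high Arntl (49.5) with low Dbp (13.6) and Per2 (3.31). Per1 did not follow in IM mouse 3 (21.7) and AM mouse 2 (24.4), both near its mean of 22.5. Not every mouse followed this pattern, since AW mouse 3 had Dbp at 13.7 with Arntl at 42.0, below the Arntl mean of 45.6. On the log2 scale, Arntl and Dbp also deviated from their means in the same direction in IW mouse 1 (-0.12 and -0.28). The same held in IM mouse 1 (0.055 and 0.18) and AM mouse 3 (0.064 and 0.12). In the other mice the directions were opposite.

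Over the 12 mice, Arntl had a Pearson r of -0.57 with Dbp on the log2 scale (Spearman rho -0.62), and the permutation p-values of 0.0571 and 0.0375 became 0.17 and 0.113 after Benjamini-Hochberg adjustment over 9 relations. Without AW mouse 1 and IW mouse 2, the farthest from the Arntl median, r with Dbp was -0.56. The r with Per2 was -0.53 (rho -0.51, permutation p = 0.0755 and 0.0938, adjusted 0.17 and 0.175) and with Per3 -0.54 (rho -0.65, permutation p = 0.0712 and 0.0259, adjusted 0.17 and 0.113). Per1 was at -0.48 (rho -0.31, permutation p = 0.112 and 0.319, adjusted 0.201 and 0.411), and its r rested on those 2 mice, being -0.013 without them. Over all 12 mice the r of largest size was positive, that of Cry1 at 0.69 (rho 0.66, permutation p = 0.0138 and 0.0212, adjusted 0.124 and 0.113), 0.50 without those mice and 0.81 for deviations from the group means. None of the 9 relations passed an adjusted p of 0.05. For Nr1d1, the direct repressor of Arntl, r was -0.0052 (rho -0.042, permutation p = 0.987 and 0.905, adjusted the same), and the r values of Nr1d2, Cry2 and Tef were -0.39, -0.19 and -0.24 (rho -0.50, -0.15 and -0.33, adjusted permutation p for r of 0.314, 0.616 and 0.571). Without AW mouse 1 and IW mouse 2 the r of Nr1d2 was the largest in size, at -0.67, and those of Per2, Per3 and Tef were -0.54, -0.54 and -0.43.

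Dbp was also set against the other genes, with their group differences already known. With Dbp, r was 0.91 for Per2 (rho 0.87, permutation p = 6e-05 and 0.00055, adjusted over 9 relations 0.00054 and 0.00495). It was 0.84 for Cry2 (rho 0.79, permutation p = 0.00068 and 0.00342, adjusted 0.00306 and 0.00769) and 0.81 for Tef (rho 0.80, permutation p = 0.00139 and 0.00267, adjusted 0.00417 and 0.00769). Without IM mouse 3 and IW mouse 3, the farthest from the Dbp median, these r values were 0.83, 0.84 and 0.81. Part of each value comes from differences between the groups, and for deviations from the group means they were 0.81, 0.73 and 0.57. Per1 and Per3 had r of 0.68 and 0.65 with Dbp (permutation p = 0.0179 and 0.0229, adjusted 0.0403 and 0.0413; rho 0.70 and 0.80), 0.43 and 0.31 for deviations from the group means, where their r with Arntl was -0.51 and -0.48. Cry1 was at 0.060, Nr1d1 at 0.45 and Nr1d2 at 0.27, with adjusted permutation p-values of 0.847, 0.182 and 0.455.

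**Figure D3:**
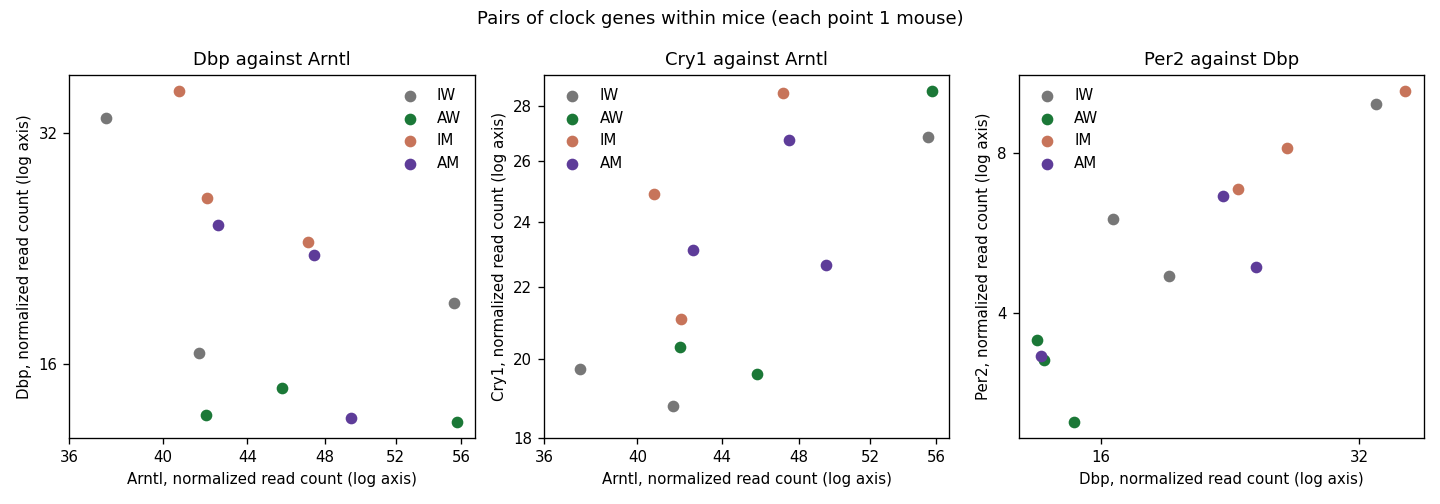
Normalized read counts of Dbp against Arntl, Cry1 against Arntl and Per2 against Dbp, both axes logarithmic, each point 1 mouse coloured by group. Dbp falls as Arntl rises (r = -0.57) with wide scatter, Cry1 rises with Arntl (r = 0.69), and Per2 follows Dbp most closely (r = 0.91).

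Counted by mouse, all of the 9 genes other than Arntl were above their own mean in IM mouse 3, and 8 of 9 in IW mouse 3 and IM mouse 1. The AW mice had 2, 1 and 1 of 9 above the mean, and AM mouse 2 had 2. IM mouse 2 and AM mouse 3 had 7 of 9, AM mouse 1 had 6, and IW mice 1 and 2 had 3 and 5. Among IW mice alone the count thus ran from 3 to 8, and among AM mice from 2 to 7. The AW mice (1 to 2) and IM mice (7 to 9) did not overlap in this count. The Arntl deviations of AW mice on the log2 scale were 0.29, 0.014 and -0.11, and those of IM mice 0.055, -0.11 and -0.15, so the groups that differed most in repressors and outputs overlapped in Arntl.

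**Figure D4:**
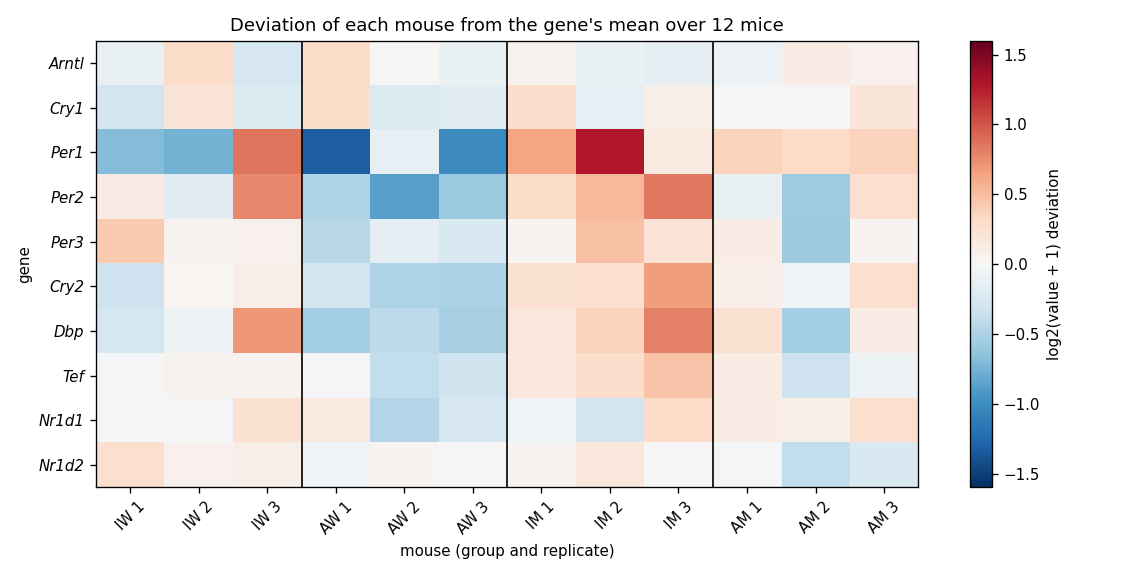
Deviation of log2(value + 1) from the gene's mean over 12 mice (colour, red above and blue below) for each clock gene (rows) in each mouse (columns, grouped by the black lines). The rows from Per1 to Tef are mostly blue in AW and mostly red in IM, whereas the Arntl row shows no such block, with deviations of 0.29, 0.014 and -0.11 in AW.

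Among the 7246 other genes tested, the one most like Arntl over the 12 mice was the mitochondrially encoded ND2 (mt), a subunit of complex I, with r = 0.93, followed by Ormdl1, Lamtor2, Tceb1 and Tmem167b at 0.77 to 0.80. Cry1 ranked 18 by r with Arntl. Pik3cd (-0.81) and Med12 (-0.80) had the most opposite patterns. The gene most like Dbp was Usp2, at r = 0.95, a ubiquitin protease gene known to be strongly rhythmic, followed by Map2k5, Gart, Fam189b and Fto at 0.92 to 0.95. Cry2 ranked 31 and Tef 60 by r with Dbp. Oxnad1, Aifm1 and Sirt3, whose proteins are mitochondrial, were the most opposite, at -0.90, -0.90 and -0.89. These likenesses are descriptions over mice that share group differences and a common scaling.

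Other genes of the pathway were taken from lists. Of 12 further clock transcription factors, 7 could be tested, and 2 were called lower in active mice, beside 6.51% of all genes. Hlf, the remaining PAR bZIP factor, fell by 0.55 on the log2 scale with activity (limma adjusted p = 0.00726) and was higher in IM than AW by 0.73 (adjusted p = 0.0078). Bhlhe41, a repressor that competes for E-boxes, fell by 0.47 (adjusted p = 0.0207) and was higher in IM than AW by 0.60 (adjusted p = 0.0247). Both shared the direction of Dbp and Tef. Clock, the partner of Arntl, was at -0.050 (adjusted p = 0.798), Rora at -0.48 (adjusted p = 0.0689) and Nfil3, the repressor that opposes Dbp at D-boxes, at 0.26 (adjusted p = 0.244). Npas2 was too low to test, at 1.89 to 4.70 normalized reads. None of the 7 was called for genotype (0 in limma, smallest adjusted p = 0.133), where 5.78% of all genes were called.

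Of 9 tested kinases and ubiquitin ligases that modify PER and CRY proteins, Gsk3b fell with activity by 0.25 (limma adjusted p = 0.0169) and, in IM-AM, by 0.37 (adjusted p = 0.023), and Csnk1d, a casein kinase that marks PER for degradation, was higher in IM than AW by 0.29 (adjusted p = 0.0239). The other 8 were not called for activity, so that 1 of 9 stood beside 14.5% of all genes. Of 12 tested genes known as rhythmic, 1 was called for activity, again beside 14.5% of all genes: Tsc22d3, which fell by 0.34 (adjusted p = 0.0421). In IM relative to AW, Usp2 (0.46, adjusted p = 0.0239) and Tsc22d3 (0.59, adjusted p = 0.0145) were higher, 2 of 12 beside 9.52% of all genes. Tsc22d3 is also a glucocorticoid target. In the list of 12 glucocorticoid-responsive and immediate-early genes, through which hormones and handling can reach the Per genes, 6 were tested and Klf9 alone was called for activity (1 of 6, beside the same 14.5%), falling by 0.25 (adjusted p = 0.0272), while 0 were called in AW-IM (limma, smallest adjusted p = 0.134), where 18.7% of all genes were called. Fkbp5 was at 0.18 (adjusted p = 0.0754) for activity over both genotypes and was called in IM-AM, higher in AM by 0.46 (adjusted p = 0.0132). Sgk1 was at -0.010 (adjusted p = 0.969) for activity.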

How the data were processed

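Single-end reads of polyadenylated RNA were mapped by the authors to mm9 with CASAVA, whose version is not stated, and counted in RefSeq exons, with exons summed to genes. For the 13 mitochondrial genes counting was separate. Values were deposited as a signal: reads per gene, scaled by the authors to an equal trimmed mean in all samples and called normalized read counts here. Whether strand was used is not stated. Of values under 5, 90.2% to 92.8% were whole multiples of 1 read (tolerance 0.1 read), but at 20 to 50 only 71.8% to 74.5%, so read counts were not modelled. A floor of 3 reads was 0.231 to 0.316 normalized reads and, like the counting errors given, covers counting error only.

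Each of the 12 columns was matched to a mouse by its name, and groups and replicate numbers came from the sample titles. Values were tested as log2(value + 1), which understates changes of low values, with limma 3.58.1 (R 4.3.3). The 7247 genes whose mean reached 10 were tested, with 1 mean per group, eBayes with a trend, two-sided p-values and Benjamini-Hochberg adjustment over all genes tested, at a threshold of 0.05. The first-named group of a pair is subtracted from the other (AW-IM is IM minus AW). The test was checked on simulated data. Correlations used log2 values and two-sided permutation tests with 100000 resamples (scipy 1.17.1). Gene positions and exon lengths came from GENCODE on NCBIM37.

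The members, gene lists and tests were chosen with earlier results of these data known. The naming rule took every member, the listed pathway genes that the text describes, the 5 genes most and least like Arntl and Dbp, and Mstn. The result of a listed pathway gene is not reported here. Alternatives were other pseudocounts, filters and scalings, no trend, sample weights, a replicate block, a slow-fibre covariate and leaving out each mouse. The same alternatives on all genes, for Per2, were added after seeing the data. The replicate number names a different mouse in each group: over 18 pairs of same-numbered mice the correlation of deviations was -0.60 to 0.48, above 0.1 in 9, and the fit without the block was the main one.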

Additional observations from a re-analysis of the deposited data

How the results depend on the processing

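Of 636 alternative values of the log2 changes, 558 kept their direction and side of the threshold, 51 lost a call, 11 gained one and 16 changed sign. Values not called in the main fit could not lose a call, so the 558 say little about how stable the calls were. For activity, leaving out a mouse kept the call of Tef in 8 of 12 fits, Cry2 in 5, Per3 in 3 and Nr1d2 in 1. In the main fits 14.5% of all genes were called for activity, 5.78% for genotype and 18.7% in AW-IM, and these shares moved as well. The 4 activity calls became 0 with the slow-fibre covariate (5.53% of all genes called). Without a mouse they were 0 to 4, beside 7.62% to 20.5% of all genes. They were 1 without IW mouse 3 (11.5%) or AM mouse 2 (8.40%), and 2 without IM mouse 2 (10.1%) or AW mouse 1 (20.5%). The single genotype call became 2 with sample weights and 1 to 2 without a mouse. IM-AM, with 0 calls beside 7.84% of all genes in the main fit, had 2 with sample weights. It had 0 to 2 without a mouse (1 without AW mouse 1, 2 without AM mouse 1). The share of all genes in those alternative fits of IM-AM is not given here. The 4 AW-IM calls became 1 with the slow-fibre covariate (4.66% of all genes) and 2 to 5 without a mouse (7.63% to 22.7%). They were 2 without AW mouse 3, beside 7.63% of all genes. IW-AM, with 0 beside 2.97% of all genes, had 1 with the covariate (5.91%) and 0 to 1 without a mouse. With a replicate block 4 genes were called for activity (Dbp in place of Per3), 1 for genotype and 4 for AW-IM, and no other count changed. The sign changes were all in values not called. With sample weights Cry1 was at -0.049 for activity and Arntl at 0.0052 for genotype. With the covariate Nr1d1 was at 0.081 for activity and -0.038 for AW-IM, and Cry1 at -0.012 for genotype and -0.24 for AW-IM. Without a mouse, the activity changes were -0.067 to 0.092 for Cry1 and -0.13 to 0.041 for Nr1d1, the genotype change of Arntl was -0.092 to 0.046, and r of Arntl with Nr1d1 was -0.13 to 0.18. The cause was not tested. The call of Nr1d2 for activity was also lost under both other scalings (adjusted p = 0.0519 and 0.0693) and without the trend (0.0579). Per2 rested on as few as 24 reads in a mouse.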
